A study of Mus musculus with 24 samples.

Results

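Scavenger and efferocytosis receptors are the surface proteins by which myeloid cells bind dying cells, modified lipoproteins and other lipid particles. The 10 genes described here were fixed by name: the TAM receptors Mertk, Axl and Tyro3, their ligands Gas6 and Pros1, and the scavenger receptors Cd36, Msr1, Scarb1, Stab1 and Mrc1. These genes and the lists below were chosen with earlier results of these data known. Counts set beside the share over all genes are therefore a description, not an independent test. All 10 were found among the 45792 genes of the deposited tables, and 9 of them passed the filter on low values (a log2 value averaging 4 or more across the libraries); Tyro3 did not. The 9 tested genes stood above 6 in every library, so none passed through 1 group alone.

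RNA sequencing was done on CD11c+ MHC class II+ cells sorted from the liver of female C57BL/6 mice, a wild-type strain, whose age was not given in the sources used here. All mice ate a diet deficient in methionine and choline (MCD) for 2 weeks, which produces steatohepatitis, so no group stands for a healthy liver. They were injected intravenously with liposomes labelled with the lipid dye DiI, either empty or carrying the plant polyphenol curcumin, and the cells were sorted 24 hours later into those positive and those negative for DiI. The 4 groups were thus DiI-negative and DiI-positive cells after empty liposomes and DiI-negative and DiI-positive cells after curcumin liposomes, with 3 libraries in each. No mouse without liposomes was among the 12 libraries. DiI marks cells that took up or bound a liposome, and a DiI-negative cell came from a mouse that had also received them. Whether a group's 3 libraries stand for individual animals or pooled ones is not stated in these sources. The p-values therefore cover differences from library to library, some of which may be technical.

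MERTK, AXL and TYRO3 are receptor tyrosine kinases that do not touch a dying cell directly. The secreted proteins GAS6 and protein S (the product of Pros1) bind phosphatidylserine on its surface and bridge it to receptors of this family, though not each ligand to each receptor. Receptor signalling then drives engulfment and dampens inflammatory cytokine production. CD36, the class A receptor MSR1, SR-BI (Scarb1), stabilin-1 (Stab1) and the mannose receptor (Mrc1) bind oxidised or acetylated lipoproteins, phospholipids, high-density lipoprotein or glycans, and in the liver they are known from Kupffer cells, the resident macrophages, and from sinusoidal endothelial cells.

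Values are gene-level log2 values on a scale that looks like a regularized log, though the transform is not stated in the sources used. Such a scale shrinks low genes, so that fold changes understate the change of low genes. Library medians over the tested genes lay between 8.79 and 8.86. A relative depth index derived from 1009 genes ran from 1.017 to 1.22 in DiI-negative and from 0.735 to 1.152 in DiI-positive libraries, so the DiI-positive libraries were on the whole shallower. The gate gene Itgax, which encodes CD11c, lay between 12.01 and 13.48 in the 12 libraries, and Cd74, the class II invariant chain, between 18.99 and 19.37. All 9 cDC1 (type 1 conventional dendritic cell) and all 10 cDC2 (type 2) markers examined passed the filter, with mean log2 levels from 9.91 to 11.60 and from 10.34 to 11.29. Markers of other cells were examined too. All 16 Kupffer cell markers and all 14 sinusoidal endothelial markers examined passed the filter, and none was at 0 in all libraries. Passing the filter does not by itself show that a marker was expressed, since some endothelial markers lay just above the cutoff of 4. In DiI-negative cells after empty liposomes Lyve1 had a mean of 4.41 and Flt4 of 4.58, while Pecam1 had one of 10.86. The third curcumin libraries of both gates stood apart, with mean log2 levels of the sinusoidal endothelial markers of 7.29 (DiI-negative) and 9.13 (DiI-positive) against 6.20 to 7.08 in the other libraries, and of the cDC1 markers of 11.60 and 11.20 against 9.91 to 10.74.

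Promoter windows were available for 8 of the 10 genes, from RefSeq on build GRCm38.p6, and Msr1 and Scarb1 had none. Each window runs from 250 bases before to 50 bases after a RefSeq start of the gene. For Cd36 and Tyro3 this start lies inside the gene model used here (17781690 to 17888801 and 119797733 to 119818104). Their windows thus do not cover the outer start of that model. The 5 shown are those of the 4 genes that were higher in DiI-positive cells over both liposomes and that of Tyro3, the TAM receptor near the floor. They are written 5′ to 3′ on the strand of the gene, and capitals mark the motifs searched on both strands. The regions are chr2:128698665-128698964 for Mertk (+ strand), chr7:25788684-25788983 for Axl (- strand), chr2:119799264-119799563 for Tyro3 (+ strand), chr5:17835847-17836146 for Cd36 (- strand) and chr14:31168592-31168891 for Stab1 (- strand).
Mertk: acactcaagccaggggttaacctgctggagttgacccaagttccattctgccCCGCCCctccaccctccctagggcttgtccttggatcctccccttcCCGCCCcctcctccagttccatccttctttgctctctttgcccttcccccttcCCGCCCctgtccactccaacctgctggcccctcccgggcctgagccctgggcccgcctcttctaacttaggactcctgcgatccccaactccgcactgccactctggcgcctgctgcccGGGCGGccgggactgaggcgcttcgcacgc
Axl: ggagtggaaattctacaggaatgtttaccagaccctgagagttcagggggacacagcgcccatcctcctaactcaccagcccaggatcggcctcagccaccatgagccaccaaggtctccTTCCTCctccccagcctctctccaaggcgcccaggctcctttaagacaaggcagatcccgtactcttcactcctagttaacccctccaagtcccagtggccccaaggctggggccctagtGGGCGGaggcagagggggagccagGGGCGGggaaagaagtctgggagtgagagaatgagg
Tyro3: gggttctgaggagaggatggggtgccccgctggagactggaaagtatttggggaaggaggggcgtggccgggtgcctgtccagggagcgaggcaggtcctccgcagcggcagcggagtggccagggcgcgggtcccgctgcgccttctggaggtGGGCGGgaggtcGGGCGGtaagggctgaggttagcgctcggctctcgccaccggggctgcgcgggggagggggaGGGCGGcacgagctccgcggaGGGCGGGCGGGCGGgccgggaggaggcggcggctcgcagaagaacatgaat
Cd36: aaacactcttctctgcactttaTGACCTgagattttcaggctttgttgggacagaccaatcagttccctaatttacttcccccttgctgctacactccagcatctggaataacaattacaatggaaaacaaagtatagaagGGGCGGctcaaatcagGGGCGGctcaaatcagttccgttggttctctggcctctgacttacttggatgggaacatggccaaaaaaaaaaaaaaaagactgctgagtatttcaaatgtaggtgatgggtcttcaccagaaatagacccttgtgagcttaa
Stab1: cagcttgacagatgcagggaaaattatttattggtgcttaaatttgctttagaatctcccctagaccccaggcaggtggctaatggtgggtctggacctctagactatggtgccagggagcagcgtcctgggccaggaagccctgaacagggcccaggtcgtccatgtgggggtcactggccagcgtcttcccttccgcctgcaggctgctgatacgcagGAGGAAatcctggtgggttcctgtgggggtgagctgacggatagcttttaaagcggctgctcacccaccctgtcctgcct

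The motifs searched were the PU.1 core GAGGAA, the E-box CACGTG, the AP-1 site TGANTCA, the nuclear receptor element AGGTCA and the GC box GGGCGG. Over all 32851 windows of the table, 28.3% held a PU.1 core, 7.15% the E-box, 7.81% the AP-1 site, 16.3% the nuclear receptor core and 35.7% a GC box. The Mertk window held 4 GC boxes and the Tyro3 window 6, some of which overlap. The Axl window held 1 PU.1 core and 2 GC boxes, the Stab1 window 1 PU.1 core, and the Cd36 window 1 nuclear receptor core and 2 GC boxes. Of the windows not shown, Mrc1 held 3 PU.1 cores and 1 GC box, Gas6 4 GC boxes and Pros1 5. The E-box and AP-1 letters were in none of the 8 windows. The GC content was 66.0% for Mertk, 60.3% for Axl, 73.3% for Tyro3, 57.3% for Stab1 and 43.0% for Cd36, against a median of 52.7% over all windows. The TAM receptor windows were thus richer in GC than the median and the Cd36 window poorer.

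The levels of the genes relative to each other were set per length, as the log2 value minus the log2 of the summed exon length in kb. On this scale Axl was the most abundant, with a median of 12.17 over the 12 libraries (11.10 to 12.60). Cd36 followed at 9.99 (8.97 to 11.59), Scarb1 at 9.54 (9.15 to 9.72) and Msr1 at 9.30 (8.31 to 9.90). Pros1 stood at 8.52 (8.08 to 9.22), Mertk at 8.44 (7.05 to 9.69), Stab1 at 8.27 (7.47 to 9.14) and Mrc1 at 7.86 (7.27 to 9.37). Neighbours from Axl to Mrc1 in this order had overlapping ranges over the 12 libraries. Gas6 was lower, at 5.49 (4.72 to 6.45), below the lowest Mrc1 value, and Tyro3 was last at -1.61. Of the TAM ligands, Pros1 exceeded Gas6 in every library, by 2.99 ± 0.55 (SD, n = 12) on the log2 scale per kb, with a smallest gap of 2.03.

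**Figure D1:**
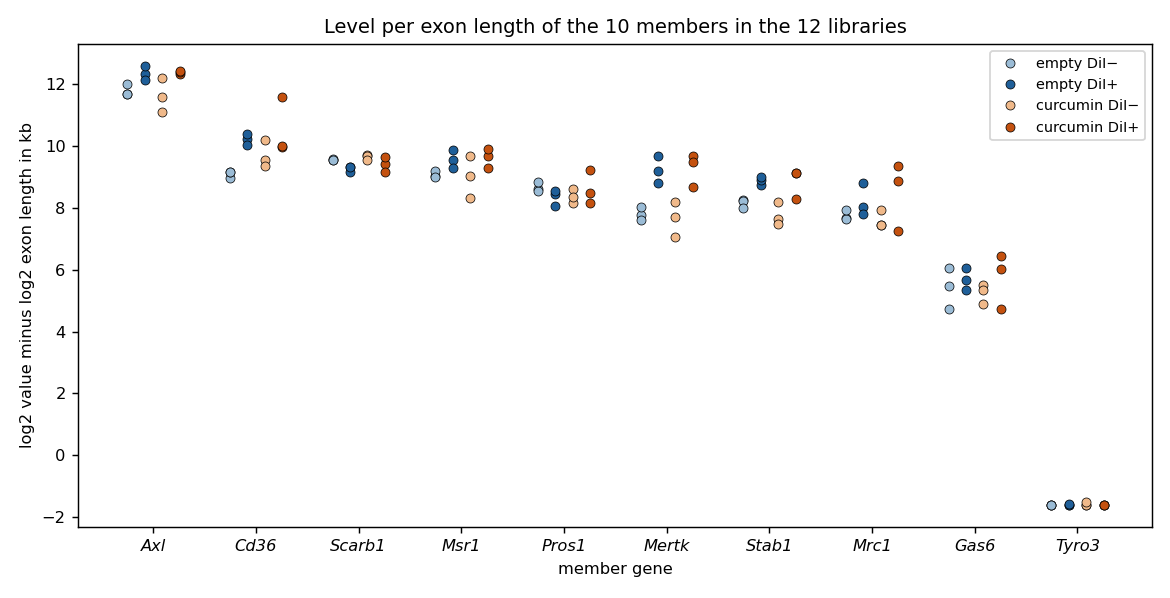
Log2 value minus log2 exon length in kb (y axis) of the 10 genes (x axis) in each of the 12 libraries, 1 point a library, coloured by group. Axl stands highest, with a median of 12.17, Gas6 stands low at 5.49, and Tyro3 is near the floor at -1.61.

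The gate comparison addresses how CD11c+ MHC class II+ cells positive for DiI differ from those negative for it. Averaged over both liposomes, 4 of the 9 tested genes, Mertk, Axl, Stab1 and Cd36, were higher in DiI-positive cells (limma, Benjamini-Hochberg adjusted p under 0.05 over 14227 genes) and none was lower, where 5.54% of all tested genes were higher and 6.56% lower. After empty liposomes alone 1 of 9, Mertk, passed (background 1.32% higher), and after curcumin liposomes alone 2 of 9, Mertk and Stab1 (background 1.41% higher). By the libraries themselves, 5 of 9 lay wholly higher in DiI-positive cells after empty liposomes (Mertk, Axl, Stab1, Cd36 and Msr1; background 12.3%) and 3 of 9 after curcumin liposomes (Mertk, Axl and Stab1; background 9.88%). Scarb1 alone of the 9 lay wholly lower, after empty liposomes (background 14.5%). In these bulk libraries fewer cells of a type and less RNA per cell cannot be told apart, and this holds for every difference below. With the depth index as a covariate, an alternative chosen after seeing the data, only Mertk kept its call over both liposomes.

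**Figure D2:**
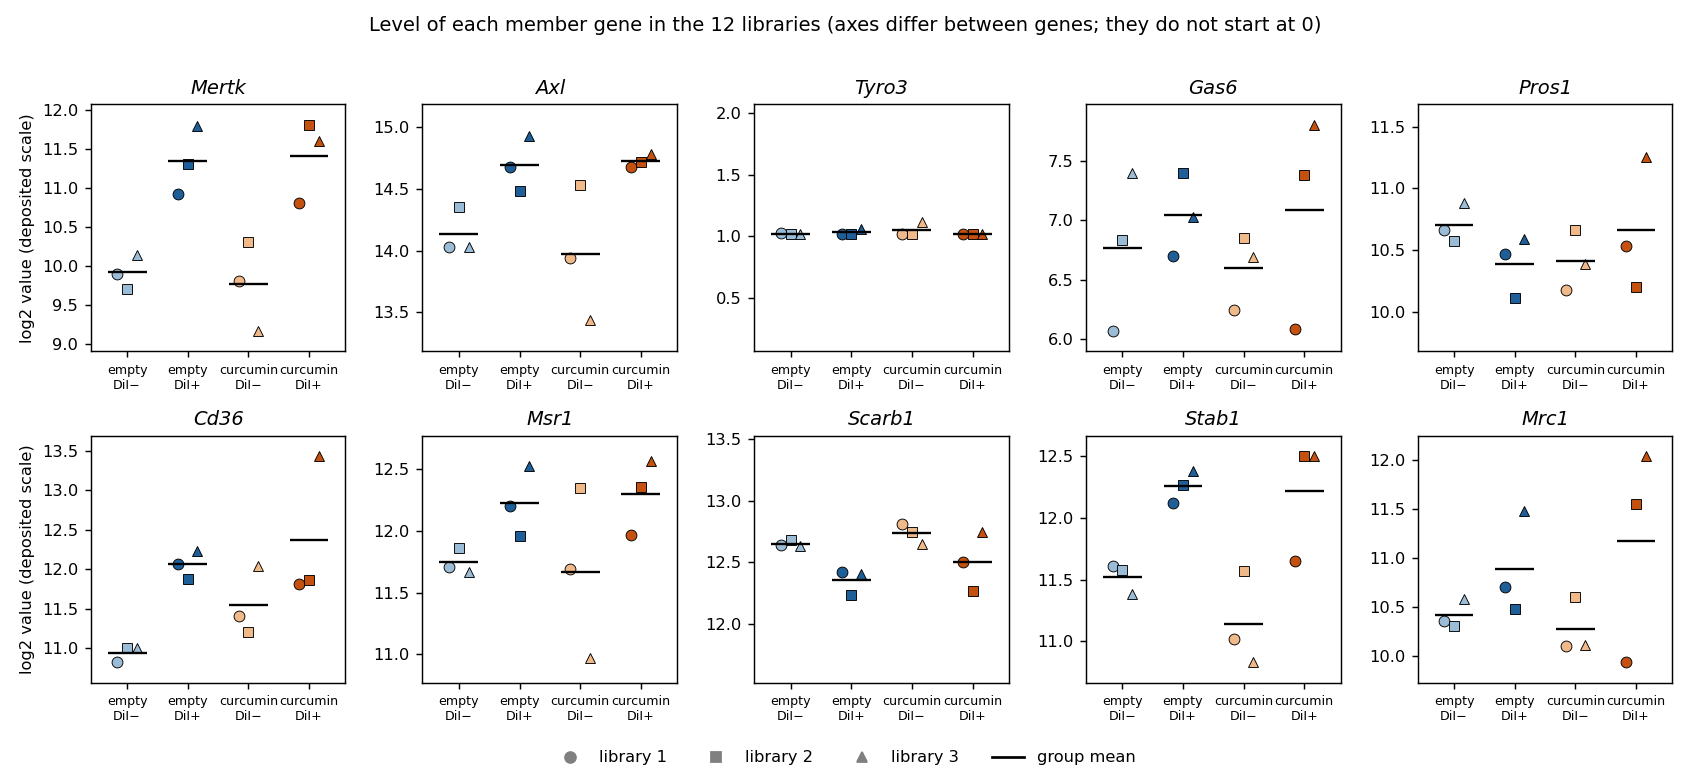
Log2 value (y axis) of each of the 10 genes in the 4 groups (x axis), with 1 marker a library and a line at the group mean. Mertk and Stab1 do not overlap between DiI-positive and DiI-negative libraries, and Tyro3 lies flat near 1.

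Mertk, the TAM receptor known from tissue macrophages, showed the widest gap between the gates among the 9 tested genes (chromosome 2, 128698956 to 128802894, + strand). After empty liposomes its log2 values were 9.90, 9.71 and 10.14 in DiI-negative and 10.92, 11.31 and 11.80 in DiI-positive libraries. After curcumin liposomes they were 9.81, 10.31 and 9.17 in DiI-negative and 10.81, 11.81 and 11.60 in DiI-positive libraries. Every DiI-positive library was thus above every DiI-negative one, under both liposomes. The log2 fold change was 1.43 ± 0.32 (SE; limma adjusted p = 0.04) after empty and 1.64 ± 0.32 (limma adjusted p = 0.023) after curcumin liposomes. Over both it was 1.53 ± 0.23, a 2.9-fold higher level on this scale (limma adjusted p = 0.0019), and with the depth index as covariate 1.27 (limma adjusted p = 0.039). The exact permutation p within liposome (two-sided, 3 against 3 in each, 400 arrangements) was 0.005, the smallest this design can give. The call under empty liposomes alone was lost without any one of the 3 DiI-negative libraries, without DiI-positive replicate 2 or 3 or without curcumin DiI-negative replicate 1 (limma adjusted p from 0.06 to 0.14), and also with no filter on low values (0.072) or with the depth index (0.12). That under curcumin liposomes was lost without DiI-negative replicate 1 or 3 or DiI-positive replicate 2 (limma adjusted p from 0.069 to 0.088), without the third curcumin libraries of both gates (1.24, 0.08), with the depth index (0.16) or with only the compared libraries in the fit (0.12). The call over both liposomes held without each library in turn.

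Axl, a TAM receptor that is also expressed by dendritic cells, was high in both gates (chromosome 7, 25757273 to 25788705, - strand). Its log2 values after empty liposomes were 14.03, 14.35 and 14.03 in DiI-negative and 14.68, 14.48 and 14.93 in DiI-positive libraries, which did not overlap. After curcumin liposomes they were 13.94, 14.53 and 13.44 against 14.68, 14.72 and 14.78, again without overlap. The highest DiI-negative library, curcumin replicate 2 at 14.53, stood above the lowest DiI-positive library after empty liposomes, at 14.48. The log2 fold change over both liposomes was 0.66 ± 0.16 (limma adjusted p = 0.019; exact permutation p = 0.005), or 1.58-fold, while within a liposome it missed the threshold, at 0.56 ± 0.22 (limma adjusted p = 0.21) and 0.76 ± 0.22 (0.089). The value after curcumin liposomes passed with quantile normalization (0.79, limma adjusted p = 0.037) and without curcumin DiI-negative replicate 2 (1.04, 0.02), and was 0.49 without DiI-negative replicate 3 (0.22) and 0.46 without the third curcumin libraries of both gates (0.23). With the depth index as covariate the value over both was 0.63 and the call was lost (limma adjusted p = 0.14).

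The distance between Axl and Mertk differed with the gate. Per kb, Axl exceeded Mertk by 4.01 ± 0.38 (SD, n = 3) on the log2 scale in DiI-negative and 3.13 ± 0.35 in DiI-positive libraries after empty liposomes, and by 3.99 ± 0.07 and 3.10 ± 0.49 after curcumin liposomes. The difference in distance was not tested by itself.

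Tyro3, the third TAM receptor, known from the nervous system and from some dendritic cells, was near the floor of the scale, with log2 values from 1.02 to 1.12 in all 12 libraries. No difference was detectable at such a level, and it was not tested in the fit.

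The TAM ligands did not pass the test in either gate comparison. Gas6 (chromosome 8, 13465374 to 13494490) had log2 values from 6.07 to 7.80, with DiI-positive and DiI-negative libraries overlapping under both liposomes. Its log2 fold change over both liposomes was 0.39 ± 0.30, with a 95% interval from -0.27 to 1.04 (limma adjusted p = 0.45). The value was 0.21 without empty DiI-negative replicate 1 or without the third library of curcumin DiI-positive cells. It was 0.64 without the first library of that group, and it turned to -0.08 with the depth index as covariate. Pros1 (chromosome 16, 62854307 to 62929346) had log2 values from 10.11 to 11.25, and its mean difference of -0.03 ± 0.17 had an interval from -0.40 to 0.34 (limma adjusted p = 0.93). The 2 liposomes gave values of opposite sign for Pros1, -0.31 ± 0.24 after empty and 0.25 ± 0.24 after curcumin, whose difference of 0.56 ± 0.34 did not pass (limma adjusted p = 1). The positive value rests on curcumin DiI-positive replicate 3, at 11.25. Without it the value after curcumin liposomes was -0.05, the same sign as after empty liposomes, and without the third curcumin libraries of both gates the difference between the liposomes was 0.26.

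**Figure D3:**
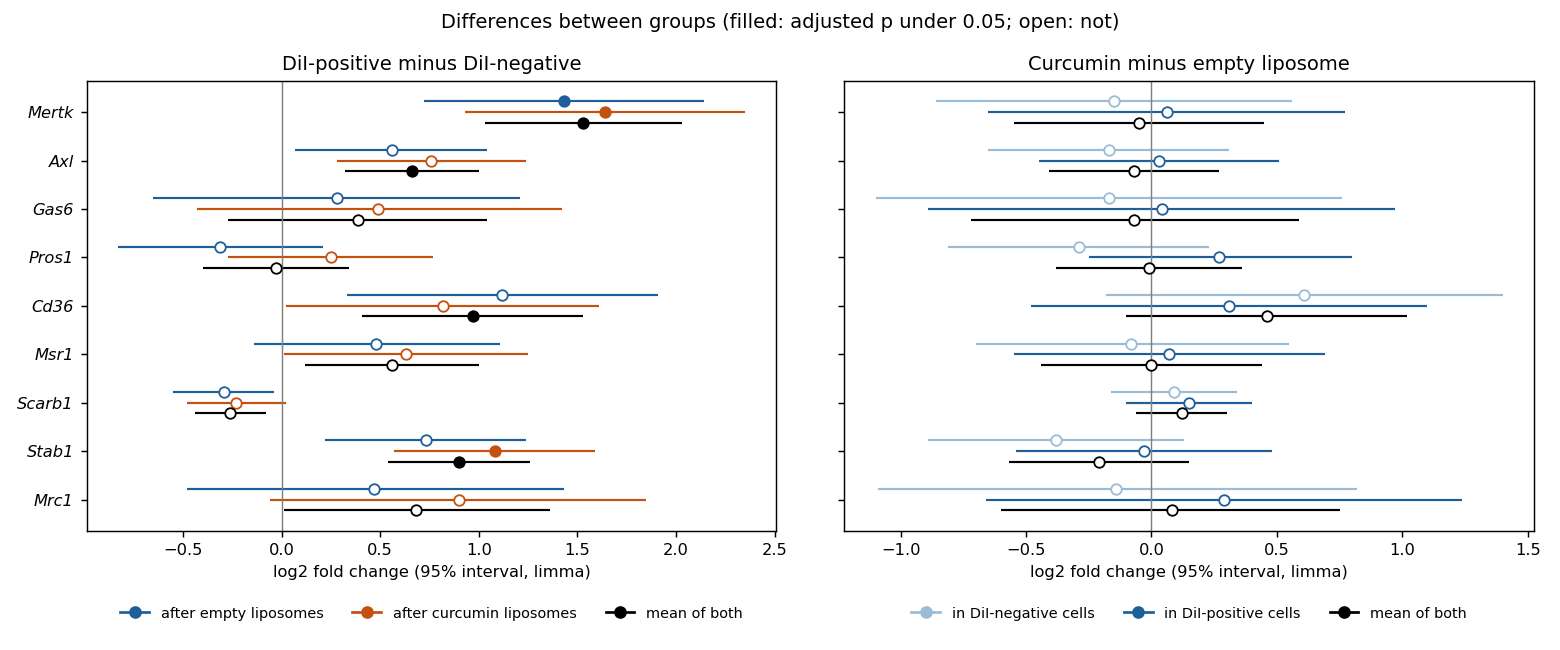
Log2 fold changes (x axis) of the 9 tested genes (y axis) with 95% intervals from limma, for DiI-positive minus DiI-negative cells (left) and curcumin minus empty liposomes (right); filled points passed adjusted p under 0.05. Mertk passes in all 3 gate estimates, with 1.53 over both liposomes, and no curcumin estimate passes.

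Stab1, a large scavenger receptor of macrophages and sinusoidal endothelium that also binds phosphatidylserine, was higher in DiI-positive cells (chromosome 14, 31139013 to 31168641, - strand). Its log2 values after empty liposomes were 11.61, 11.58 and 11.38 in DiI-negative and 12.12, 12.27 and 12.38 in DiI-positive libraries. After curcumin liposomes they were 11.02, 11.57 and 10.83 against 11.65, 12.50 and 12.50. No DiI-positive library fell below a DiI-negative one. With Mertk, Stab1 was 1 of 2 tested genes of the set whose 6 DiI-positive libraries all lay above the 6 DiI-negative ones (background 2.52%). The log2 fold change was 0.73 ± 0.23 after empty (limma adjusted p = 0.12) and 1.08 ± 0.23 after curcumin liposomes (0.031), and 0.90 ± 0.16 over both (limma adjusted p = 0.0051; exact permutation p = 0.005). With the depth index as covariate it was 0.74 (limma adjusted p = 0.084). Without the third curcumin libraries the value after curcumin liposomes was 0.78 and no longer passed (limma adjusted p = 0.12); without empty liposome DiI-negative replicate 2, curcumin DiI-negative replicate 1 or 3, or curcumin DiI-positive replicate 2 it did not pass either (0.053 to 0.12), nor with no filter (0.059), with only the compared libraries (0.16) or with the depth index (0.20). The 3′ end of Stab1 overlaps Nt5dc2 on the other strand (mean log2 value 8.19), and without a statement that the counting used strand, reads there cannot be assigned.

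Cd36, a fatty acid and oxidised lipoprotein receptor, was higher in DiI-positive cells over both liposomes (chromosome 5, 17781690 to 17888801, - strand). After empty liposomes its log2 values were 10.82, 11.00 and 11.00 in DiI-negative and 12.07, 11.88 and 12.23 in DiI-positive libraries, without overlap. After curcumin liposomes they were 11.41, 11.20 and 12.04 against 11.81, 11.86 and 13.43, with overlap. The third curcumin library was the highest of its group in both gates. That library was also highest of its group in marker means of several lists, given here for DiI-negative, then DiI-positive cells. These were sinusoidal endothelial (7.29 and 9.13), cDC1 (11.60 and 11.20), plasmacytoid dendritic cell (9.90 and 9.88) and Kupffer cell markers (9.06 and 11.89). For B cell markers it was the lowest (11.50 and 12.24). Which of these lists goes with the Cd36 values was not tested. Over both liposomes the log2 fold change was 0.97 ± 0.26 (limma adjusted p = 0.031; exact permutation p = 0.015), or 1.96-fold, and it was 0.83 ± 0.09 without the third curcumin libraries of both gates (limma adjusted p = 0.00049). The call was lost without any 1 of the 6 empty liposome libraries or of curcumin DiI-negative replicates 1 and 2 (values from 0.88 to 1.01, limma adjusted p from 0.05 to 0.071), with no filter on low values (0.057) and with the depth index as covariate (1.10, adjusted p = 0.11). Per kb, Scarb1 stood above Cd36 by 0.47 ± 0.10 (SD, n = 3) in DiI-negative cells after empty liposomes and below it, at -0.95 ± 0.10, in DiI-positive cells. After curcumin liposomes the same difference was -0.06 ± 0.50 and -1.11 ± 0.73, so Scarb1 did not stand clearly above Cd36 in the DiI-negative cells there.

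The other scavenger receptors did not pass over both liposomes. Msr1, the class A receptor for acetylated lipoprotein, had log2 values of 11.71, 11.86 and 11.67 against 12.20, 11.96 and 12.53 after empty and 11.69, 12.35 and 10.97 against 11.97, 12.36 and 12.57 after curcumin liposomes. Its difference of 0.56 ± 0.20 had an interval from 0.12 to 1.00 (limma adjusted p = 0.098; exact permutation p = 0.03), and without curcumin DiI-negative replicate 2 it was 0.72 and passed (limma adjusted p = 0.02). It was 0.31 without the third curcumin libraries of both gates (limma adjusted p = 0.22) and 0.50 with the depth index (0.35). Mrc1, the mannose receptor, ran from 10.11 to 10.61 in DiI-negative and from 9.94 to 12.04 in DiI-positive libraries. The spread in the DiI-positive cells was wide after curcumin liposomes, at 9.94, 11.56 and 12.04, and the difference over both liposomes was 0.68 ± 0.31 (limma adjusted p = 0.18; exact permutation p = 0.105). It was 0.99 and passed without curcumin DiI-positive replicate 1 (limma adjusted p = 0.0084), 0.43 without the third curcumin libraries of both gates (0.41), and 0.57 with the depth index (0.50).

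Curcumin DiI-negative replicate 3 held the lowest of all 12 values of Mertk (9.17), Axl (13.44), Stab1 (10.83) and Msr1 (10.97), and the highest DiI-negative value of Cd36 (12.04).

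Scarb1, the high-density lipoprotein receptor SR-BI, was the 1 tested scavenger receptor with a negative value. Its log2 values after empty liposomes were 12.64, 12.68 and 12.63 in DiI-negative and 12.42, 12.24 and 12.41 in DiI-positive libraries, without overlap. After curcumin liposomes they were 12.81, 12.75 and 12.65 against 12.50, 12.27 and 12.75. Curcumin DiI-positive replicate 3 thus reached the DiI-negative range. The difference over both liposomes was -0.26 ± 0.08 (limma adjusted p = 0.058; exact permutation p = 0.01). It was -0.32 and passed without curcumin DiI-positive replicate 3 (limma adjusted p = 0.0098), and -0.35 without the third curcumin libraries of both gates (0.012), but -0.18 with the depth index as covariate (0.37). The exact permutation p-values given for single genes are not adjusted; 20 such tests were made (10 genes, gates and liposomes).

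The liposome comparison addresses whether the drug load changed the cells. None of the 9 tested genes passed in DiI-positive cells, in DiI-negative cells or over both gates, where 0% of all tested genes passed; by limma 1165, 469 and 1119 of the 14227 genes had an unadjusted p under 0.05. Mertk differed by -0.05 ± 0.23 over both gates, with a 95% interval from -0.55 to 0.45, and Axl by -0.07 ± 0.16, from -0.41 to 0.27 (limma adjusted p = 0.98 and 0.95). Stab1 differed by -0.21 ± 0.16, from -0.57 to 0.15, and Scarb1 by 0.12 ± 0.08, from -0.06 to 0.30.

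Cd36 had the widest difference with curcumin, 0.46 ± 0.26 over both gates (limma adjusted p = 0.69; exact permutation p = 0.17). In DiI-negative cells its libraries did not overlap, with 10.82 to 11.00 after empty and 11.20 to 12.04 after curcumin liposomes, a difference of 0.61 ± 0.36 (limma adjusted p = 1), where 5.73% of all tested genes lay wholly higher. Without the third curcumin libraries of both gates the Cd36 difference was 0.07 over both gates, 0.37 in DiI-negative and -0.22 in DiI-positive cells, the last against 0.31 with them. No test of a liposome effect on the gate difference passed for any of the 9 genes either (0% of all tested genes; 527 at an unadjusted p under 0.05 by limma).

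Of the other genes of efferocytosis, 6 were higher and 3 lower in DiI-positive cells over both liposomes among 22 tested of 27 listed, with a median log2 fold change of 0.17 against 0.01 over all tested genes. For this and the lists that follow, the background over both liposomes was 5.54% higher and 6.56% lower. The 3 chains of C1q, a complement component that coats apoptotic cells, were C1qa at 1.49 ± 0.26, C1qb at 1.43 ± 0.24 and C1qc at 1.46 ± 0.26 (limma adjusted p from 0.0037 to 0.0044). Timd4, a phosphatidylserine receptor of resident macrophages, was higher by 2.95 ± 0.64 (limma adjusted p = 0.013). C1qa had log2 values of 10.54, 11.13 and 11.46 against 11.72, 12.16 and 12.76 after empty and 10.65, 11.44 and 9.88 against 12.36, 12.61 and 12.41 after curcumin liposomes, so all 6 DiI-positive libraries lay above the DiI-negative ones. The lower 3, named after their values were seen, were Lgals3, Havcr2 and Cd300a, at -0.37, -0.40 and -0.28. Of 13 tested of 18 other scavenger receptors, 4 were higher and 1 lower (median 0.20). Clec4f, a Kupffer cell lectin, was higher by 4.52 ± 0.40, Marco, a class A scavenger receptor, by 4.05 ± 0.54, and Cd5l, a secreted protein of the scavenger receptor cysteine-rich family, by 3.31 ± 0.35.

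Of 16 tested of 17 genes of the engulfment machinery downstream of the receptors, 1 was higher and 3 lower (median -0.22; background 5.54% and 6.56%), the higher count being at the background. Rubcn, which acts in phagocytosis assisted by autophagy proteins, was higher by 0.71 ± 0.11 (limma adjusted p = 0.0024). Elmo2, an adaptor of the Rac exchange factor, the GTPase Rac1 and the exchange factor Vav3 were lower, at -0.67 ± 0.09, -0.44 ± 0.08 and -0.55 ± 0.13 (limma adjusted p = 0.0011, 0.0041 and 0.019). Of 11 tested of 13 genes of TAM signalling and receptor maturation none was higher and 3 were lower (median -0.09; background 6.56% lower): the adaptor Grb2 at -0.43 ± 0.09, and the cytokine signalling inhibitors Socs3 at -0.63 ± 0.17 and Socs1 at -0.24 ± 0.07. Of 11 tested of 12 transcription factors of lipid sensing and myeloid identity 4 were higher and 2 lower (median 0.26). Spic, a factor of iron-recycling macrophages, was higher by 0.94 ± 0.15, Nr1h3, which encodes the oxysterol receptor LXR alpha, by 0.96 ± 0.24 and Pparg, a fatty acid receptor, by 0.68 ± 0.16, and Spi1, which encodes PU.1, was lower by a difference of -0.39 ± 0.08 (limma adjusted p = 0.0024, 0.023, 0.018 and 0.0077).

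Markers of other cells moved with the gate in which Mertk, Axl, Stab1 and Cd36 were higher. Of 16 Kupffer cell markers 14 were higher and none lower in DiI-positive cells over both liposomes, with a median of 2.54. Their mean log2 level ran from 8.34 to 8.63 in DiI-negative and from 9.57 to 11.51 in DiI-positive libraries after empty liposomes, and from 8.48 to 9.06 and from 10.87 to 11.89 after curcumin liposomes. Il18bp (2.61 ± 0.18), Clec4f, Clec1b (2.30 ± 0.21) and the iron exporter Slc40a1 (2.48 ± 0.25) were the 4 with the smallest p. Of 11 markers of lipid-associated macrophages, 6 were higher and 1, Lgals3, was lower (median 0.85). Among the higher were Mmp12 at 1.82 ± 0.20 and Pld3 at 1.10 ± 0.13. The mean level of the 11 markers ran from 11.51 to 12.12 in DiI-negative and from 12.19 to 12.66 in DiI-positive libraries. Of 14 sinusoidal endothelial markers 2 were higher (background 5.54%), Pecam1 (0.99 ± 0.09) and Stab2 (3.06 ± 0.85), with a median of 0.58 and mean levels from 6.20 to 7.29 and from 6.38 to 9.13. Of the genes named, Clec4f, Cd5l, Marco, Timd4, Stab2, Spic and Lgals3 stand in more than 1 of the lists named here. The Kupffer cell and sinusoidal endothelial lists also share Cdh5.

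Other markers went the opposite way or belong to lymphocytes. All 10 B cell markers were higher, with mean levels from 11.50 to 12.13 in DiI-negative and from 12.24 to 13.37 in DiI-positive libraries. Against a background of 6.56% lower, 7 of 12 monocyte markers were lower (median -0.67; 11.36 to 12.17 against 11.20 to 11.35), as were 8 of 12 T and NK cell markers (median -1.24) and 6 of 10 cDC2 markers, with 1 higher (median -0.63). Of 9 cDC1 markers 1 was higher and 2 lower (median -0.54), and none of 7 tested neutrophil markers passed (median -0.53). None of the markers of these 6 lists was at 0 in all libraries. The part of any of these lists in the differences of the 4 receptor genes was not tested.

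**Figure D4:**
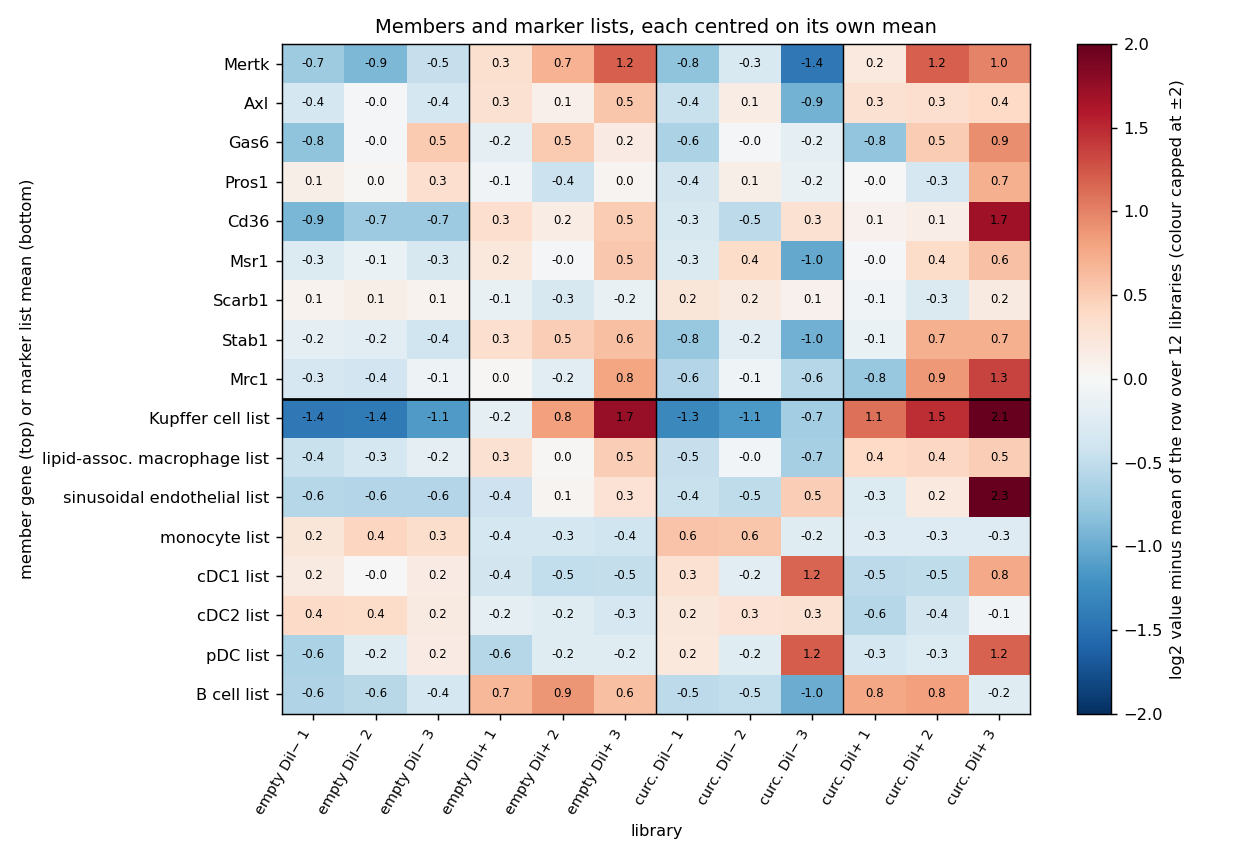
Heat map of the 9 tested genes and of the means of 8 marker lists (rows) in the 12 libraries (columns), as the log2 value minus the mean of its row over the 12 libraries. Mertk, Axl, Stab1 and the Kupffer cell list are higher in the DiI-positive columns. Cd36 is highest in the third curcumin DiI-positive library, where its log2 value before centring was 13.43.

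The genes whose log2 values followed each receptor most closely over the 12 libraries are a description and share the gate, the depth and the composition of the libraries. Mertk was most like Slc7a8 (Pearson r = 0.966), Gm43621 and Pld3 (both 0.965). Axl was most like Slc11a1 (0.968), Acp2 (0.963) and Pilra (0.961), and Msr1 like Sirpa (0.959), Axl (0.945) and Slc11a1 (0.944). The nearest gene to Stab1 was Mertk itself (0.941), before Pla2g15 (0.929) and A130051J06Rik (0.927). Cd36 had Smc1b (0.926), Plpp3 and Cd86 (both 0.924), and Scarb1 had Taldo1 (0.956), Plekho2 (0.950) and Adora2b (0.949). For Mrc1 the nearest were Slc45a3 (0.924), Pdgfc (0.914) and Npr2 (0.903). The ligands had lower values, with 5730409E04Rik at 0.897 for Gas6 and Gm26751 at 0.874 for Pros1. Of the 9 tested genes, only Stab1 (Mertk) and Msr1 (Axl) thus had another of the 9 among their 3 nearest. Axl and Msr1 also shared Slc11a1. Mrc1, without one of the 9 among its 3 nearest, had an r of 0.8 with Stab1 and 0.77 with Mertk.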

How the data were processed

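The authors deposited 1 column of log2 values per library, 1 value a gene. STAR 2.4.0d, DESeq2 1.8.1 and the build GRCm38 were used, per the submitters' processing notes. How reads were counted, on which annotation and with which transform is not stated in the sources used. Per the labels' protocols, RNA was amplified with a low-input SMARTer kit and libraries were made with Nextera XT. The 24 sample records carry 12 library codes, 2 records a code, and each code was counted as 1 library. Codes were read as EL or CL (empty or curcumin liposome) and P or N (DiI-positive or DiI-negative). The values range from -3.62 to 19.4, and 20918 of 45792 genes are at 0 in all libraries, as on a regularized log scale. Reads per library are unknown, so no counting interval is given. Relative depth was read from 1009 genes with the pattern of a single read in 1 library.

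The 14227 genes averaging a log2 value of 4 or more were tested with limma 3.58.1 in R 4.3.3: 4 group means over all 12 libraries, eBayes with trend (8 residual and 3.51 prior degrees of freedom), Benjamini-Hochberg adjusted p under 0.05. The fit was tested on simulated data. Symbols, coordinates and exon lengths came from GENCODE M21. All 10 genes are named, of each other list at most 4 with the smallest p over both liposomes (1 gene this admits is not reported here), and for each tested gene the 3 with the highest Pearson r. The genes and lists were chosen with earlier results of these data known. Alternatives were the filter, the trend, the libraries in the fit, library weights, scaling, a replicate block, each library left out, the depth index and leaving out the third curcumin libraries.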

Additional observations from a re-analysis of the deposited data

How the results depend on the processing

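Over 1359 alternative values of the 9 tested genes, 1309 kept their side of the threshold, 34 lost a call, 16 gained one and no called value changed sign. Most of the values had no call to lose, and those of the curcumin and interaction comparisons all kept their side. The 34 losses fell on the called gate results. Mertk lost 8 of 22 after empty, 6 of 22 after curcumin and 0 of 21 over both liposomes. Stab1 lost 8 of 22 after curcumin liposomes and 1 of 21 over both, Axl 1 of 21 and Cd36 10 of 21 over both. Counts of all genes past the threshold moved too. Between gates after empty liposomes 419 passed, against 263 with no filter, 789 with library weights, 178 with the depth index as covariate and 666 without the third curcumin libraries, and 85 to 659 with 1 library left out. After curcumin liposomes 437 passed, against 248 with no filter, 40 with only the compared libraries, 57 with the depth index and 706 without the third curcumin libraries, and 114 to 1088 with 1 left out. Over both liposomes 1722 passed, against 440 with the depth index and 1149 to 2244 with 1 left out. For curcumin against empty liposomes 0 passed in each gate and over both, against 3 in DiI-positive cells and 1 over both without the third curcumin libraries, and 0 to 4 and 0 to 2 with 1 left out. For the interaction 0 passed, against 1 and 0 to 2. The cause was not tested. Of the 4 calls over both liposomes, those of Axl, Stab1 and Cd36 were lost with the depth index. With library weights Mrc1 (0.85, limma adjusted p = 0.046) and Scarb1 (-0.26, 0.043) passed too. The replicate block gave 405, 407 and 1616 calls between gates and the same number of 4 called genes of the set over both liposomes. Libraries of the same number deviated together with correlations from -0.114 to 0.328 over all pairs of groups, most of them under 0.1. Between the gates of 1 liposome these were 0.079, 0.004 and 0.076 after empty and 0.066, 0.035 and 0.328 after curcumin liposomes. There, every DiI-negative library but curcumin replicate 2 correlated best with its own number. Whether the 2 gates of a number share mice was not known, and libraries were fitted as unpaired. The replicate block joins a number over both liposomes, so pairing within a liposome was not tested. With 3 libraries a group, unknown read depth and what looks like a shrunken scale, differences of low genes are probably understated, and a missed threshold does not show equality. The depth index orders libraries and moves with the gate.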
